A study of Mus musculus with 8 samples.

Results

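The TNF superfamily is a set of membrane-bound and secreted ligands and the receptors that bind them, here taken with the TRAF adaptors that carry the signal inside the cell. Members were chosen by symbol: every gene whose symbol begins with Tnfsf or Tnfrsf, together with Tnf, Lta, Ltb, Ltbr, Fas, Fasl, Cd40, Cd27, Cd70 and the TRAF genes. The rule found 43 of the 22180 genes that had a probe set of their own on the array: 14 ligands, 24 receptors and 5 TRAFs. Tnfsf12 and Tnfsf13 were measured only by a probe set shared between them, and Traf3 was not analysed here. Each of the 43 had 1 probe set assigned to it alone, so no choice between probe sets arose.

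RNA was measured on 8 arrays of whole kidney, 1 array per mouse, all mice aged 2 months. The groups were Wild Type (n = 2), Col4a3-/- (n = 3) and Col4a3-/-OPN-/- (n = 3). Col4a3 encodes a collagen chain of the glomerular basement membrane, and mice without it are a model of Alport syndrome, a hereditary kidney disease; both mutant groups lack it. OPN is osteopontin, a secreted matrix protein that the second mutant group lacks as well; no group lacked OPN alone. The deposited values are on a log2 scale, so a difference of 1 is a doubling, and the differences below are on that scale unless a fold is named.

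Most of these ligands are trimers that cluster their receptors. Receptors with a cytoplasmic death domain, such as Tnfrsf1a and Fas, can assemble a complex that kills the cell, whereas receptors that bind TRAF adaptors directly, such as Tnfrsf1b, Cd40, Ltbr and Tnfrsf12a, mainly switch on NF-kappaB and kinase cascades. In the kidney, tubular, glomerular and endothelial cells carry several of the receptors, and macrophages and lymphocytes bring ligands and further receptors into inflamed tissue. Fewer or more cells of a type cannot be told apart from less or more RNA per cell in whole-kidney RNA.

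The Col4a3 probe set read 8.77 and 8.42 in the Wild Type kidneys, 7.65, 7.67 and 6.60 in the Col4a3-/- kidneys and 6.82, 6.13 and 7.60 in the Col4a3-/-OPN-/- kidneys, so every mutant lay below both Wild Type arrays. Xist and 3 Y-linked genes marked 4 arrays as female and 4 as male. Both Wild Type mice were male, and each mutant group held 2 females and 1 male, the male being Col4a3-/- replicate 2 and Col4a3-/-OPN-/- replicate 3. Each comparison was therefore fitted without and with a term for sex. That term rests on 2 mutant males, and with it a difference from Wild Type leans on them. Col4a3-/- replicate 2 stood apart: its values correlated with those of the other 2 Col4a3-/- arrays at r = 0.865 and 0.839, while those 2 correlated at 0.959. These correlations cover the 7145 genes above the signal limit given below. It was also the only male of its group. The calls against Wild Type are also given without it; for the lists of other genes and for the full set of 43 that refit was chosen after the data were seen.

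Levels differed widely between members, but probe sets have their own efficiencies, so no member was ranked above another by its value. Testing was limited to genes whose mean over the 8 arrays exceeded the 75th percentile of all probe sets, 6.64, which 7145 genes and 9 members passed: Tnfsf10, Tnfsf13b, Tnfrsf1a, Ltbr, Tnfrsf12a, Fas, Tnfrsf21, Traf4 and Traf6. Tnfsf13b lay just inside that limit with a mean of 6.643 and Tnfrsf1b just outside it with 6.637. Because 34 members fell under the limit, including Tnf itself, all 43 were also tested in a fit over all 22180 genes with no filter.

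**Figure D1:**
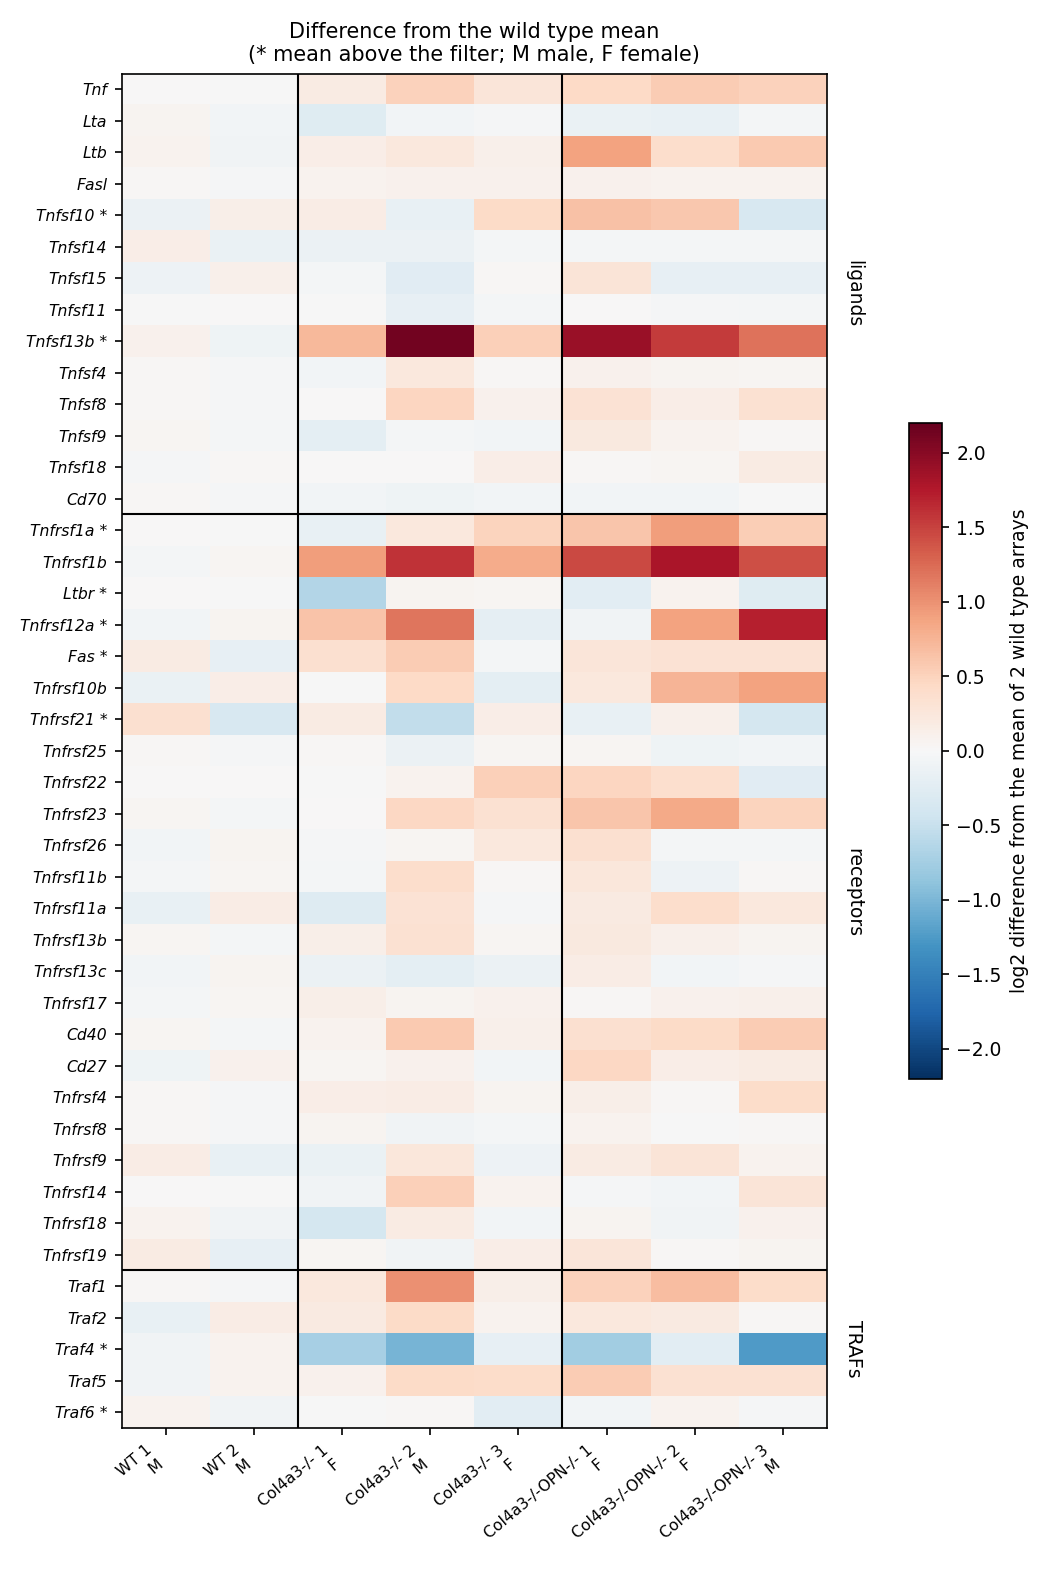
Log2 difference of each of the 43 members (rows, grouped as ligands, receptors and TRAFs) from the mean of the 2 Wild Type arrays, for each of the 8 arrays (columns). Red is above and blue below the Wild Type mean; Tnfsf13b and Tnfrsf1b are red in all 6 mutant arrays, Traf4 is blue in all 6, and most other rows stay pale.

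Members that stood clear of Wild Type were mostly higher. Of the 43, 11 lay above both Wild Type arrays in all 3 Col4a3-/- kidneys (25.6%, where 15.5% of all genes did), and 4 lay below (9.3% against 19.2%). In Col4a3-/-OPN-/- kidneys 17 lay above (39.5% against 15%) and 1 lay below (2.33% against 19.1%). Both counts share the 2 Wild Type arrays.
All 6 mutant kidneys exceeded both Wild Type kidneys for 9 members (20.9% against 9.24%): Tnf, Ltb, Fasl, Tnfsf13b, Tnfrsf1b, Tnfrsf13b, Cd40, Traf1 and Traf5. Only Traf4 lay below in all 6 (2.33% against 11.7%). Array by array, 16, 26 and 21 members exceeded both Wild Type values in Col4a3-/- replicates 1, 2 and 3, and 31, 26 and 24 did so in Col4a3-/-OPN-/- replicates 1, 2 and 3; over all genes the share ranged only from 33.7% to 35.3%. The median member differed from Wild Type by 0.08 in Col4a3-/- and 0.11 in Col4a3-/-OPN-/- kidneys, against -0.01 in both for the median gene of all.

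Tnf and the lymphotoxins are the inflammatory ligands. Tnf, the founding cytokine of the family, read 5.02 and 4.99 in Wild Type, 5.19, 5.51 and 5.27 in Col4a3-/- and 5.44, 5.57 and 5.50 in Col4a3-/-OPN-/- kidneys. The Wild Type pair lay below every mutant, and the highest Col4a3-/- value fell among the double mutants. All of these are low values, with Tnf's mean close to the middle of all probe sets (5.22). The Tnf difference from Wild Type was 0.32 (SE 0.10, adjusted p = 0.230) in Col4a3-/- and 0.50 (SE 0.10, adjusted p = 0.129) in Col4a3-/-OPN-/- kidneys in the fit over all genes without a sex term. With a sex term Tnf was 0.42 higher in Col4a3-/- (adjusted p = 0.0706), which did not pass, and rose by 0.60 in Col4a3-/-OPN-/- kidneys (SE 0.103, adjusted p = 0.0372), a 1.51-fold increase. That last call was lost on leaving out any 1 array but Col4a3-/-OPN-/- replicate 3, with differences of 0.50 to 0.61 and adjusted p of 0.0547 to 0.160. The Col4a3-/- difference without Col4a3-/- replicate 2 was 0.23 in both fits.

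Ltb, the subunit that anchors the lymphotoxin heterotrimer to the lymphocyte surface, read 5.43 and 5.27 in Wild Type, 5.49, 5.58 and 5.46 in Col4a3-/- and 6.23, 5.73 and 5.93 in Col4a3-/-OPN-/- kidneys. The 3 groups did not overlap. Its difference between the mutant groups was 0.45 (SE 0.128, unadjusted p = 0.0104, adjusted p = 1.0, no filter, no sex term), and 0.32 without Col4a3-/-OPN-/- replicate 1, the array with its highest value. Lta, the soluble partner of Ltb, stayed between 4.76 and 5.09 on all 8 arrays with overlapping groups.

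Tnfsf13b (BAFF), a survival factor for B cells made largely by myeloid and stromal cells, had the largest differences among the ligands. It read 5.74 and 5.54 in Wild Type, 6.35, 7.77 and 6.17 in Col4a3-/- and 7.54, 7.19 and 6.83 in Col4a3-/-OPN-/- kidneys. Every mutant lay above Wild Type, and Col4a3-/- replicate 2 was the highest of all. Without a sex term the difference was 1.12 (SE 0.448, adjusted p = 0.191) in Col4a3-/- and 1.55 (SE 0.448, adjusted p = 0.116) in Col4a3-/-OPN-/- kidneys. Without Col4a3-/- replicate 2 these were 0.62 (adjusted p = 0.231) and 1.55, and the latter passed (adjusted p = 0.00961). With a sex term Tnfsf13b rose by 1.87 in Col4a3-/-OPN-/- kidneys (SE 0.491, adjusted p = 0.0321, 3.65-fold), while its difference of 1.45 in Col4a3-/- kidneys missed the threshold (SE 0.491, adjusted p = 0.0629). The sex-term differences moved with single mice: without Col4a3-/- replicate 2 they were 0.09 and 1.19, and without Col4a3-/-OPN-/- replicate 3 they were 2.12 and 3.22. The sex-term call in Col4a3-/-OPN-/- kidneys was kept in only 3 of 8 fits that each left out 1 array.

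The upstream sequences of 4 members are shown because the comparisons turn on them. Tnfsf13b and Tnfrsf1b had the highest mean differences from Wild Type in the fits without a sex term, and Tnfrsf12a and Traf4, described further on, passed the test with one in both mutant groups. The 250 bases upstream of the annotated start of each come from RefSeq, build GRCm38.p6, and are written 5′ to 3′ on the gene's strand. The build behind the array's own annotation was not used. Capitals mark any match to an IRF-type element, a STAT-type GAS element (TTCNNNGAA), an AP-1 element (TGANTCA) or the kappaB element, searched on both strands.
Tnfrsf1b (chr4:145246871-145247120, minus strand): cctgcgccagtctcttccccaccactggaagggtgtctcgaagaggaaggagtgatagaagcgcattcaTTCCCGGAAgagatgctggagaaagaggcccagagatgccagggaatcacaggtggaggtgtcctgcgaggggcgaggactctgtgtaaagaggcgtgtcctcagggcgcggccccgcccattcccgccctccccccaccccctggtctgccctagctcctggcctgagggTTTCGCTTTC
Tnfsf13b, the downstream of 2 annotated starts (chr8:10006383-10006632, plus strand): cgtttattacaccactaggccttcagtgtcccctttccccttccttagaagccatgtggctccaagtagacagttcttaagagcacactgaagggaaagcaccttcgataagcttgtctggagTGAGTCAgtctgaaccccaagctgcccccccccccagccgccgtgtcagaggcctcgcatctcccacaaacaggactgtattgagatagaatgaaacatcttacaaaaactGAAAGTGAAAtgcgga
Tnfrsf12a (chr17:23677450-23677699, minus strand): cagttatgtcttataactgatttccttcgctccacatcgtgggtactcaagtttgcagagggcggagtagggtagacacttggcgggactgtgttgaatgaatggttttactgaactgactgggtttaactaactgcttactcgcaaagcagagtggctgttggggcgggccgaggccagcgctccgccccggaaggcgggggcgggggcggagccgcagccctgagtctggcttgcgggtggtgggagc
Traf4 (chr11:78165551-78165800, minus strand): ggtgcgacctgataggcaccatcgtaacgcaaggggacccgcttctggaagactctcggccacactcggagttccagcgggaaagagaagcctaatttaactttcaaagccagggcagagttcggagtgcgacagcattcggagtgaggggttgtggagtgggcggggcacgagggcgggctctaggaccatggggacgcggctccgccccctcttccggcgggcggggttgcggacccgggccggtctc
In the Tnfrsf1b window TTTCGCTTTC, an IRF-type match, begins at -10 from the start and TTCCCGGAA, a GAS match, at -181. In the Tnfsf13b window GAAAGTGAAA, an IRF-type match on the reverse strand, begins at -16 and TGAGTCA, an AP-1 match, at -127. The window at the other annotated start of Tnfsf13b, and those of Tnfrsf12a and Traf4, hold none of the 4; the Traf4 window has 22 CpG and a GC content of 64.8%. Windows were found for 35 of the 43 members. The IRF-type match was in 4 of these (Tnfrsf14, Tnfrsf17, Tnfrsf1b and Tnfsf13b). By window, it was in 10.3% of the members' 39 windows and 2.98% of all 32851. The GAS match was in 8 members (20.5% of their windows against 7.02% of all). The kappaB element was in 4 members (10.3% against 7.25%) and AP-1 in 5 (12.8% against 6.75%). Whether these shares differ was not tested. Matches describe the letters only.

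Tnfsf10 (TRAIL), a ligand that can trigger cell death, differed between the sexes. It read 6.61 and 6.86 in Wild Type, 6.90, 6.57 and 7.16 in Col4a3-/- and 7.39, 7.33 and 6.38 in Col4a3-/-OPN-/- kidneys. The 4 female mutants were the highest 4 arrays, and both male mutants lay below both Wild Type males. Females exceeded males by 0.72 (SE 0.160, adjusted p = 0.0343, 1.64-fold) in the fit with groups and sex, where 8.22% of tested genes were higher and 1.97% lower in females, and 4 of 9 members had an unadjusted p under 0.05 (29.9% of tested genes). Over all genes with no filter 0 of 43 members passed between the sexes (1.16% of genes higher, 0.334% lower), 9 with an unadjusted p under 0.05 (18.4%). That call was lost on leaving out any 1 array but Col4a3-/- replicate 1, with differences of 0.46 to 0.98. Neither genotype difference passed in either fit (adjusted p 0.226 to 0.804). Fasl, the other death ligand, lay above Wild Type in all 6 mutants, but its whole range was 4.58 to 4.70.

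The other ligands were low and changed little. Tnfsf8 (CD30 ligand) read 4.65 and 4.60 in Wild Type, 4.63, 5.10 and 4.72 in Col4a3-/- and 4.94, 4.77 and 4.95 in Col4a3-/-OPN-/- kidneys, with its highest value in the male of each mutant group. Its sex-term difference of 0.44 in Col4a3-/-OPN-/- kidneys had an adjusted p of 0.0857. Tnfsf4, Tnfsf9, Tnfsf18 and Cd70, costimulatory ligands of T cells, and Tnfsf11 (RANK ligand) and Tnfsf14 each spanned 0.12 to 0.42 between their lowest and highest arrays, and Tnfsf15 spanned 0.53. None of these 7 passed any test.

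Tnfrsf1a and Tnfrsf1b are the receptors of Tnf, the former carried by most cells and bearing a death domain, the latter largely by immune and endothelial cells and binding TRAFs. Tnfrsf1a read 7.87 and 7.85 in Wild Type, 7.69, 8.09 and 8.36 in Col4a3-/- and 8.47, 8.78 and 8.40 in Col4a3-/-OPN-/- kidneys. All 3 double mutants exceeded all other arrays, and the Col4a3-/- kidneys straddled Wild Type. The difference from Wild Type was 0.69 (SE 0.210, adjusted p = 0.127) in Col4a3-/-OPN-/- and 0.19 (SE 0.210, adjusted p = 0.596) in Col4a3-/- kidneys without a sex term, and 0.64 (adjusted p = 0.0926) and 0.13 (adjusted p = 0.708) with one. None passed. Between the mutant groups Tnfrsf1a differed by 0.50 (SE 0.188, unadjusted p = 0.0281, adjusted p = 1.0).

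Tnfrsf1b read 5.59 and 5.68 in Wild Type, 6.56, 7.23 and 6.46 in Col4a3-/- and 7.09, 7.43 and 7.06 in Col4a3-/-OPN-/- kidneys. Every mutant lay well above both Wild Type arrays, with Col4a3-/- replicate 2 among the double mutants. In the fit over all genes the difference was 1.11 (SE 0.242, adjusted p = 0.156) in Col4a3-/- and 1.55 (SE 0.242, adjusted p = 0.0937, 2.94-fold) in Col4a3-/-OPN-/- kidneys without a sex term. With one, it was 1.29 (SE 0.273, adjusted p = 0.0504) in Col4a3-/-, and Tnfrsf1b rose by 1.73 (SE 0.273, adjusted p = 0.0321, 3.31-fold) in Col4a3-/-OPN-/- kidneys. The latter call was kept in 2 of 8 fits that each left out 1 array, in which the difference was 1.42 to 2.35. The sex-term difference in Col4a3-/- kidneys ran from 0.67 without Col4a3-/- replicate 2 (adjusted p = 0.233) to 1.60 without Col4a3-/-OPN-/- replicate 3 (adjusted p = 0.0109). It also passed after quantile normalization (adjusted p = 0.0413), cyclic loess (0.0433) or with an intensity trend and robust prior (0.0269).

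Tnfrsf12a (Fn14), the receptor of TWEAK, which is induced in injured tubules, spread widely within the mutant groups. It read 6.88 and 7.0 in Wild Type, 7.57, 8.12 and 6.74 in Col4a3-/- and 6.86, 7.83 and 8.66 in Col4a3-/-OPN-/- kidneys. The male of each mutant group was its highest array, and 1 female of each group lay below both Wild Type values. Without a sex term its differences were 0.53 (SE 0.534, adjusted p = 0.552) and 0.84 (SE 0.534, adjusted p = 0.387). With a sex term, which compares the male mutants more closely with the Wild Type males, Tnfrsf12a rose by 1.29 in Col4a3-/- (SE 0.384, adjusted p = 0.0425, 2.45-fold) and by 1.60 in Col4a3-/-OPN-/- kidneys (SE 0.384, adjusted p = 0.0249, 3.03-fold). The female-minus-male difference of -1.14 did not pass (SE 0.308, adjusted p = 0.0570). The Col4a3-/- call was lost without either Wild Type mouse, without Col4a3-/- replicate 2 or without Col4a3-/-OPN-/- replicate 3 (1.17 to 1.52, adjusted p 0.0854 to 0.162), and the Col4a3-/-OPN-/- call without either Wild Type mouse or without Col4a3-/-OPN-/- replicate 3 (1.37 to 1.66, adjusted p 0.0822 to 0.136).

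Ltbr, the lymphotoxin beta receptor, read 8.18 and 8.16 in Wild Type, 7.52, 8.22 and 8.20 in Col4a3-/- and 7.94, 8.24 and 7.90 in Col4a3-/-OPN-/- kidneys. Col4a3-/- replicate 1 alone stood low, and the groups overlapped. No Ltbr difference passed (adjusted p 0.629 to 1.0 over the 3 comparisons, both fits).

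**Figure D2:**
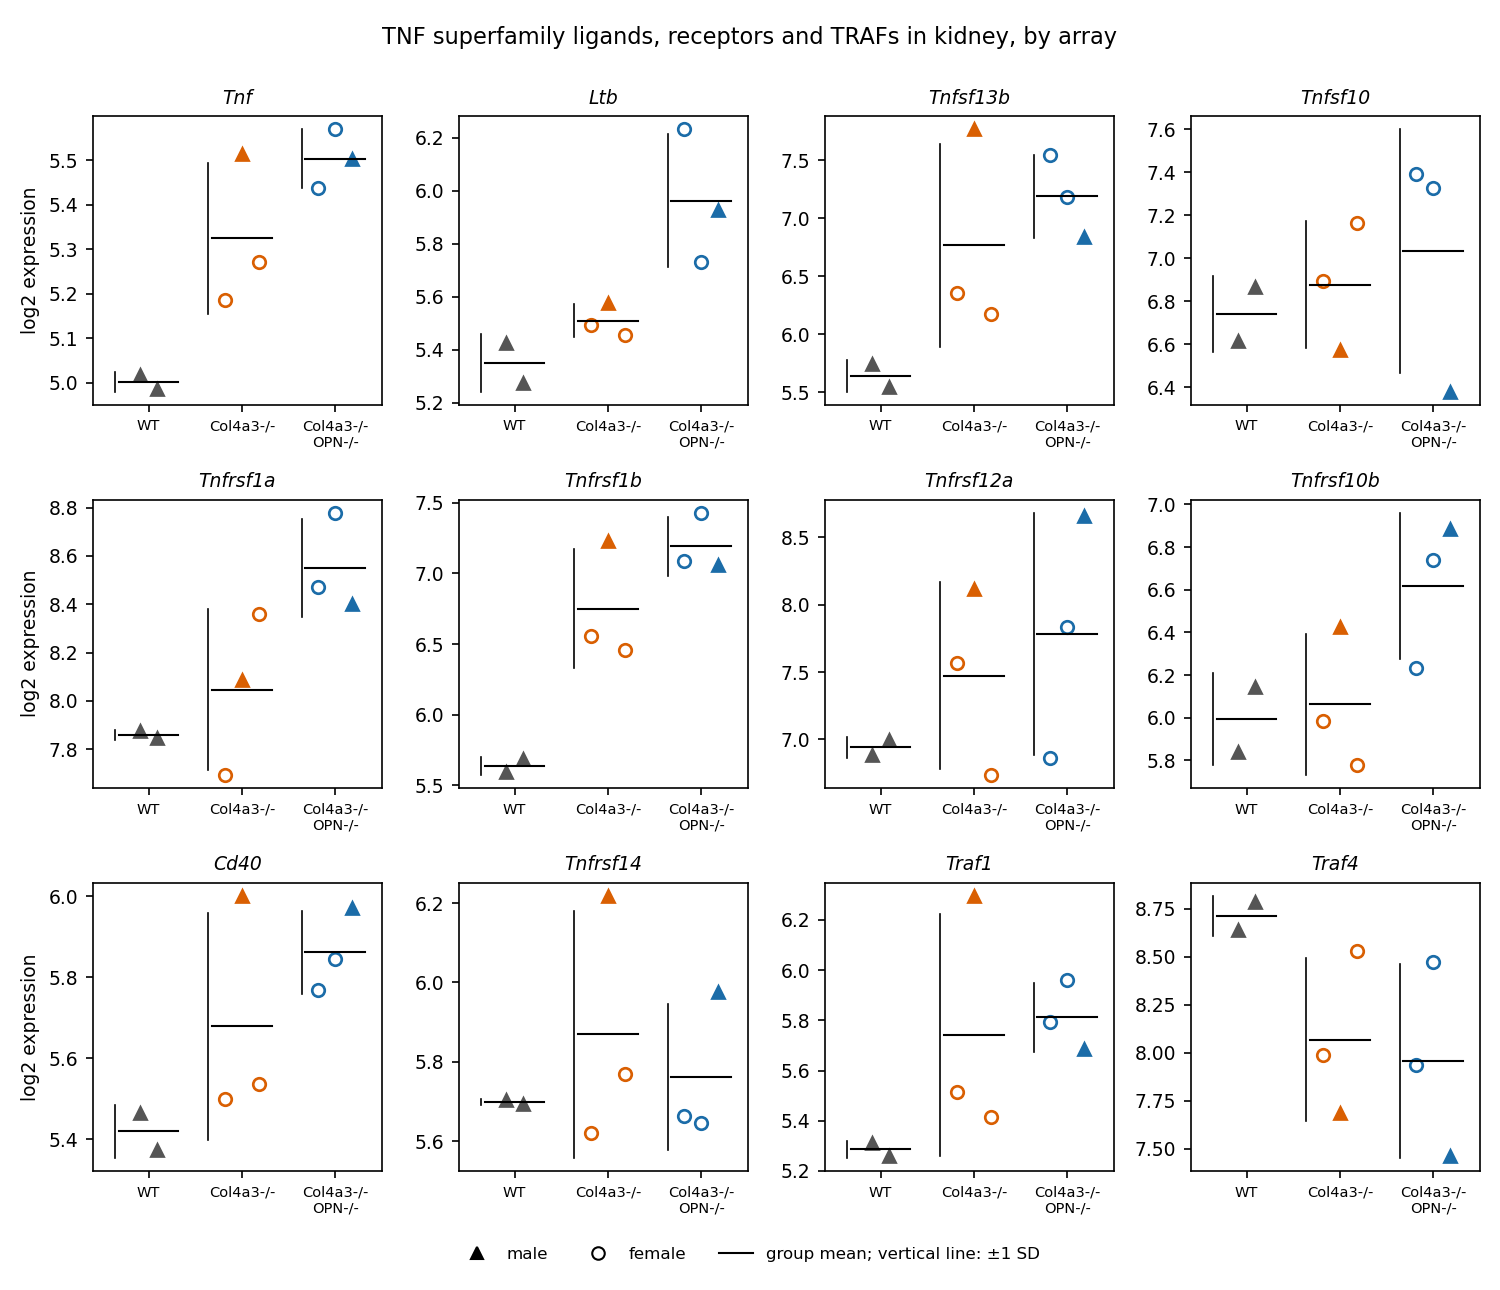
Log2 expression of 12 members on each of the 8 arrays, by group; triangles are males, open circles females, the horizontal line is the group mean and the vertical line ±1 SD. Wild Type lies below all mutants for Tnf, Ltb, Tnfsf13b, Tnfrsf1b, Cd40 and Traf1 and above all for Traf4, and the mutant males are the highest arrays for Tnfrsf12a and Tnfrsf14 and the lowest for Tnfsf10. Axes start above 0 and differ between panels.

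Among the death receptors, Fas, the receptor of Fasl, read 7.15 and 6.79 in Wild Type, 7.32, 7.53 and 6.93 in Col4a3-/- and 7.24, 7.30 and 7.29 in Col4a3-/-OPN-/- kidneys. The double mutants lay just above Wild Type with an SD of 0.03. Its differences of 0.29 and 0.30 did not pass, nor did the 0.43 and 0.44 of the sex-term fit (adjusted p 0.153 to 0.398). Tnfrsf10b, the mouse death receptor for Tnfsf10, read 5.84 and 6.14 in Wild Type, 5.98, 6.43 and 5.78 in Col4a3-/- and 6.23, 6.74 and 6.89 in Col4a3-/-OPN-/- kidneys. Its sex-term difference in Col4a3-/-OPN-/- kidneys was 0.94 (SE 0.209, adjusted p = 0.0576). Tnfrsf21 (DR6) had 10.49 and 9.79 in Wild Type and 9.60 to 10.33 in the mutants, and both male mutants lay below both Wild Type males and all 4 female mutants. Tnfrsf25 (DR3) stayed between 5.33 and 5.50 on all arrays.

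The receptors without a signalling tail act as decoys. Tnfrsf23, a mouse decoy for Tnfsf10, read 5.45 and 5.37 in Wild Type, 5.42, 5.86 and 5.74 in Col4a3-/- and 6.02, 6.24 and 5.90 in Col4a3-/-OPN-/- kidneys, the double mutants above all other arrays. Its difference from Wild Type in that group was 0.65 (SE 0.151, adjusted p = 0.157), and 0.66 with a sex term (adjusted p = 0.10). The other 3, Tnfrsf22, Tnfrsf26 and the secreted Tnfrsf11b (osteoprotegerin), overlapped between all groups. Tnfrsf11a (RANK) lay above Wild Type in the double mutants by 0.27 on average, with replicates of 5.98, 6.17 and 6.01 against 5.63 and 5.94.

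Of the costimulatory receptors, Cd40, through which helper T cells activate B cells, macrophages and endothelium, read 5.47 and 5.37 in Wild Type, 5.50, 6.0 and 5.54 in Col4a3-/- and 5.77, 5.85 and 5.97 in Col4a3-/-OPN-/- kidneys. Every mutant exceeded Wild Type, and the 2 mutant males were highest. Cd40 rose by 0.66 in Col4a3-/-OPN-/- kidneys with a sex term (SE 0.106, adjusted p = 0.0329, 1.58-fold); its 0.48 in Col4a3-/- (adjusted p = 0.0556) and its 0.26 and 0.44 without that term (adjusted p = 0.496 and 0.283) did not pass. Of the 8 fits that left out 1 array, 6 lost the call (0.61 to 0.71, adjusted p up to 0.146). Without Col4a3-/- replicate 2 the sex-term difference in Col4a3-/- kidneys was 0.26 (adjusted p = 0.313), and without Col4a3-/-OPN-/- replicate 3 it was 0.58 and passed (adjusted p = 0.0201). Tnfrsf14 (HVEM) read 5.70 and 5.69 in Wild Type, 5.62, 6.22 and 5.77 in Col4a3-/- and 5.66, 5.65 and 5.97 in Col4a3-/-OPN-/- kidneys, highest in the male of each mutant group. It rose by 0.45 in Col4a3-/- kidneys in the sex-term fit over all genes (SE 0.0878, adjusted p = 0.0441), and 6 of 8 fits leaving out 1 array lost that call (0.32 to 0.46); without a sex term it was 0.17 (adjusted p = 0.734). Cd27, a receptor of T and memory B cells, read 4.66 and 4.83 in Wild Type, 4.79, 4.83 and 4.68 in Col4a3-/- and 5.19, 4.89 and 4.93 in Col4a3-/-OPN-/- kidneys, with the double mutants above all other arrays. Tnfrsf4, Tnfrsf8, Tnfrsf9 and Tnfrsf18 stayed between 4.74 and 5.80, and Tnfrsf19 (TROY) between 5.17 and 5.60, none with a call.

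The receptors of Tnfsf13b gave no call. Tnfrsf13c (BAFF receptor) read 5.77 and 5.89 in Wild Type, 5.71, 5.61 and 5.71 in Col4a3-/- and 5.99, 5.76 and 5.81 in Col4a3-/-OPN-/- kidneys, so the single mutants were the lowest. Tnfrsf13b (TACI) and Tnfrsf17 (BCMA), the other 2, read between 4.57 and 4.96 on all arrays. No difference of the 3 passed.

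TRAF adaptors link the receptors to NF-kappaB, and Traf1 is itself an NF-kappaB target. Traf4, a family member abundant in epithelia, was the member that fell. It read 8.64 and 8.79 in Wild Type, 7.99, 7.69 and 8.53 in Col4a3-/- and 7.94, 8.47 and 7.46 in Col4a3-/-OPN-/- kidneys. Every mutant was lower than both Wild Type mice, with the male lowest in each group. With a sex term Traf4 fell by 1.08 in Col4a3-/- (SE 0.250, adjusted p = 0.0211, 2.11-fold) and by 1.19 in Col4a3-/-OPN-/- kidneys (SE 0.250, adjusted p = 0.0175, 2.28-fold). The median of all tested genes in these fits was itself -0.15 in both comparisons, and between -0.04 and -0.20 under other normalizations, under each of which Traf4 was called lower. Without a sex term its differences of -0.64 (SE 0.325, adjusted p = 0.263) and -0.75 (SE 0.325, adjusted p = 0.230) did not pass. The sex-term calls were lost without either Wild Type mouse and, for each group, without its male (-1.26 to -1.01, adjusted p 0.0517 to 0.119).

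Traf1 read 5.31 and 5.26 in Wild Type, 5.51, 6.30 and 5.41 in Col4a3-/- and 5.79, 5.96 and 5.69 in Col4a3-/-OPN-/- kidneys. All mutants lay above Wild Type and Col4a3-/- replicate 2 was highest. Its differences of 0.67 and 0.74 with a sex term had adjusted p of 0.211 and 0.176. They were -0.01 and 0.40 without Col4a3-/- replicate 2 (adjusted p = 0.985 and 0.107), and without Col4a3-/-OPN-/- replicate 3 the latter was 1.42 and passed (adjusted p = 0.0105). Traf5 lay above Wild Type in all 6 mutants too (5.54 and 5.69 against 5.71 to 6.17), with no call in either fit. A second probe set, shared by Traf5 and Rcor3, ran the other way: it read 4.94 and 4.87 in Wild Type and 4.73 to 4.83 in the mutants, all 6 below both. Traf2, 6.18 to 6.77, and Traf6, 6.70 to 7.01, overlapped between groups.

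Counting calls gave little against the background. In the fit without a sex term 0 of 9 tested members passed in any of the 3 comparisons. In Col4a3-/- against Wild Type 0.014% of tested genes were called in each direction, in Col4a3-/-OPN-/- against Wild Type 0.056% higher and 0.028% lower, and between the mutants 0%. At an unadjusted p under 0.05, 1, 3 and 1 of 9 passed, where 23.2%, 21.6% and 1.46% of all tested genes did. With a sex term 2 of 9 passed in Col4a3-/- kidneys, Tnfrsf12a higher and Traf4 lower, where 7.31% of tested genes were higher and 19.9% lower. In Col4a3-/-OPN-/- kidneys 3 of 9 passed, Tnfrsf12a and Tnfsf13b higher and Traf4 lower, where 6.4% were higher and 17.8% lower. Over all 43 members with no filter, 1 was higher in Col4a3-/- (Tnfrsf14, background 2.05%) and 3 in Col4a3-/-OPN-/- kidneys (Tnf, Tnfrsf1b and Cd40, background 2.08%), none was lower (4.86% and 4.17%), and between the mutants 0 of 43 passed, as did 0% of all genes. Without a sex term 0 of 43 passed in any comparison, where 0.00902% of all genes were higher and 0.0225% lower in Col4a3-/-, and 0.0135% and 0.0316% in Col4a3-/-OPN-/- kidneys. Leaving out Col4a3-/- replicate 2 changed these counts. Then 5 of 43 were higher in Col4a3-/-OPN-/- kidneys without a sex term, where 3.2% of all genes were called: Tnf (0.50, adjusted p = 0.0219), Tnfsf13b (1.55, 0.0276), Tnfrsf1b (1.55, 0.0124), Cd40 (0.44, 0.0458) and Traf1 (0.53, 0.0483). With one, 3 were (2.98% of all genes): Tnfsf13b (1.19, adjusted p = 0.0494), Tnfrsf1b (1.42, 0.0385) and Cd40 (0.55, 0.0450). In Col4a3-/- kidneys 0 of 43 then passed in either fit, where 1 of 22180 genes did without a sex term and 0 with one; 3 and 5 members had an unadjusted p under 0.05, against 13% and 16.3% of all genes. The unadjusted counts without a sex term were 3, 9 and 7 of 43, against 15.1%, 14.3% and 3.2% of all genes. With one they were 9, 15 and 5 of 43, against 24.8%, 24.3% and 5.05%, and 3, 4 and 1 of the 9 above the filter, against 43.3%, 41.7% and 3.82%. Tested among all genes with no filter, the 3 members called above lost their calls at the same differences, with adjusted p of 0.0638 and 0.0539 for Traf4, 0.127 and 0.0830 for Tnfrsf12a and 0.105 for Tnfsf13b. Shares of members near the background are not a result about the family.

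**Figure D3:**
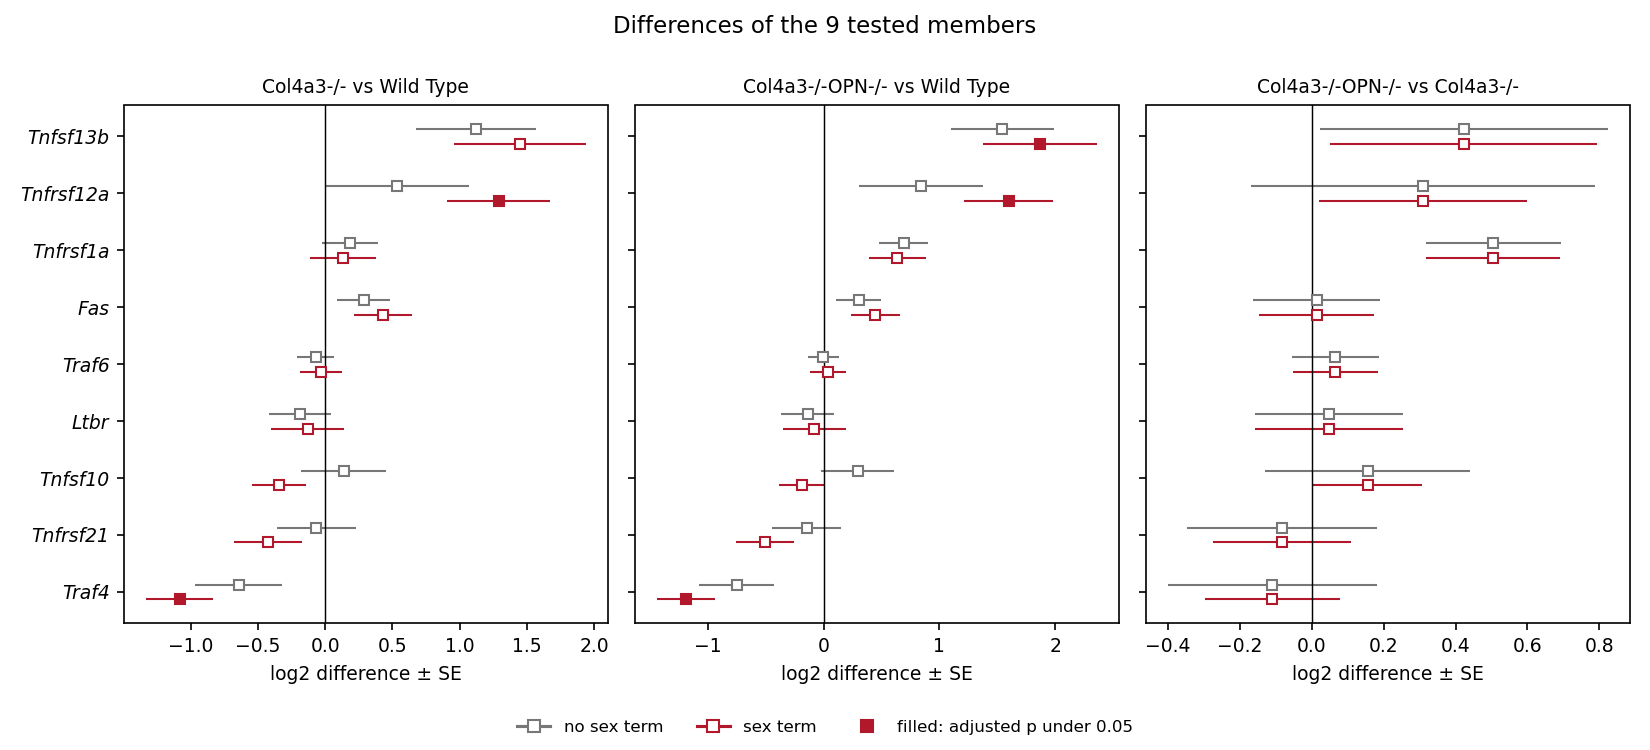
Log2 differences with SE of the 9 tested members in the 3 comparisons, in the fits without (grey) and with (red) a sex term; filled squares passed at an adjusted p under 0.05. Filled squares appear only for Traf4, Tnfrsf12a and Tnfsf13b, all with the sex term and against Wild Type, and the last panel has none.

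Loss of osteopontin on top of Col4a3 was assessed by comparing the mutant groups directly. No member passed in either fit. Ltb, Tnfsf9, Tnfrsf1a, Tnfrsf23, Tnfrsf13c and Cd27, 6 members in all, were higher in all 3 Col4a3-/-OPN-/- kidneys than in all 3 Col4a3-/- kidneys (14% of 43, where 3.32% of all genes were), and 0 were lower (3.9%). Their mean differences ranged from 0.18 for Tnfrsf13c to 0.50 for Tnfrsf1a. Their unadjusted p lay between 0.0104 and 0.0496 in the fit over all genes without a sex term, and each adjusted p was 1.0. Of all 43, 32 differences were above 0, as were 50.7% of those of all genes, with a median of 0.06 against 0.00 for all genes. The largest of the 43 was 0.56, for Tnfrsf10b, whose mutant groups overlapped.

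The mutant groups were also compared within each sex. Among females, with 2 mice in each group, 17 of 43 members were higher in both Col4a3-/-OPN-/- than in both Col4a3-/- kidneys (background 20.4%) and 1, Tnfrsf21, was lower (18.9%). Tnfsf13b was 1.10 higher in the double-mutant females (6.35 and 6.17 against 7.54 and 7.19) and 0.93 lower in the double-mutant male (7.77 against 6.83). The difference between those differences, 2.03, had an unadjusted p of 0.000522 and an adjusted p of 0.110 in a fit with an interaction of group and sex, which left 2 residual degrees of freedom and called 0 of 7145 genes; 858 genes had an unadjusted p under 0.05. Tnfrsf1b differed by 0.75 in females and by -0.18 in males, and Traf1 by 0.41 and -0.61. Against the Wild Type males, the Col4a3-/- male was 2.12 higher for Tnfsf13b, 1.60 for Tnfrsf1b, 1.17 for Tnfrsf12a and 1.01 for Traf1, and differed by -1.02 for Traf4. The Col4a3-/-OPN-/- male differed from them by 1.19, 1.42, 1.72, 0.40 and -1.25 for the same genes in the same order. With 1 male in each mutant group these differences had no replicate check. Both mutant males exceeded all 4 mutant females for 6 members (Tnfsf8, Tnfrsf12a, Cd40, Tnfrsf4, Tnfrsf14 and Tnfrsf18; background 10.6%) and lay below them for 4 (Tnfsf10, Tnfsf11, Tnfrsf21 and Traf4; background 15.9%).

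Other genes of the pathway were read from lists chosen for their known roles, but with earlier results of these data known. Counts from these lists are therefore descriptions and not independent of the data. Of 31 adaptor and death-complex genes, 28 were measured and 18 tested; with a sex term 2 were higher in each mutant group against Wild Type and 0 lower, where 7.31% and 6.4% of all tested genes were higher and 19.9% and 17.8% lower. These shares are the background for the lists that follow too. The 2 were Birc3 and Birc2, ubiquitin ligases that bind TRAFs and restrain cell death. Birc3 read 6.64 and 6.40 in Wild Type, 7.15, 8.26 and 6.89 in Col4a3-/- and 7.11, 7.65 and 8.18 in Col4a3-/-OPN-/- kidneys, and rose by 1.59 (SE 0.240, adjusted p = 0.00857) and 1.81 (adjusted p = 0.00774). Birc2 rose by 1.31 and 1.41 (adjusted p = 0.0107 and 0.0112). None of the 18 passed without a sex term: Birc3 differed by 0.92 and 1.13 (adjusted p = 0.243 and 0.190) and Birc2 by 0.83 and 0.92 (adjusted p = 0.197 and 0.176). On leaving out Col4a3-/- replicate 2, Birc3 and Birc2 lost their sex-term calls in Col4a3-/- kidneys (adjusted p = 0.0906 and 0.116), and both stayed called in Col4a3-/-OPN-/- kidneys (1.66 and 1.26, adjusted p = 0.0151 and 0.0222). Without Wild Type replicate 2, which left 1 Wild Type mouse, the list lost its calls in both groups, and fewer of all tested genes were called.

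Of 16 NF-kappaB genes, 14 were measured and 6 tested. Nfkb2, the precursor used by the noncanonical branch below Ltbr, Cd40 and Tnfrsf12a, read 6.34 and 6.28 in Wild Type, 7.04, 7.75 and 6.97 in Col4a3-/- and 7.10, 7.51 and 7.79 in Col4a3-/-OPN-/- kidneys. It rose by 1.36 (SE 0.180, adjusted p = 0.00744) and 1.57 (adjusted p = 0.00499) with a sex term. In Col4a3-/- kidneys Ikbkb, a kinase of the canonical branch, rose by 0.52 (adjusted p = 0.0387) and Nfkbib, an inhibitor, fell by 0.58 (adjusted p = 0.0371); in Col4a3-/-OPN-/- kidneys Bcl3, a nuclear cofactor, rose by 1.56 (adjusted p = 0.0192). In the fit without a sex term 0 of 6 passed, with Nfkb2 at 0.94 (adjusted p = 0.130) and 1.16 (adjusted p = 0.0849). Without Col4a3-/- replicate 2 the sex-term difference of Nfkb2 was 1.18 in Col4a3-/- (adjusted p = 0.0757) and 1.48 in Col4a3-/-OPN-/- kidneys (adjusted p = 0.0103), and in the latter it then also passed without the term (1.16, adjusted p = 0.0195).

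Of 32 genes known as TNF or NF-kappaB targets, 31 were measured and 13 tested, 7 higher and 1 lower in Col4a3-/- and 8 higher and 0 lower in Col4a3-/-OPN-/- kidneys with a sex term. Vcam1, an endothelial adhesion molecule, rose by 2.84 (SE 0.377, adjusted p = 0.00744) and 3.38 (adjusted p = 0.00467), and Icam1, its companion, by 1.13 (adjusted p = 0.0161) and 1.81 (adjusted p = 0.00774). The tubular injury protein Lcn2 rose by 3.42 and 4.31 (adjusted p = 0.00531 and 0.00348) and the chemokine Ccl5 by 3.27 and 3.22 (adjusted p = 0.0132 and 0.0150). Sod2, a mitochondrial superoxide dismutase, fell by 0.86 in Col4a3-/- kidneys (adjusted p = 0.0331). Without a sex term only Lcn2 passed, in Col4a3-/-OPN-/- kidneys (3.76, adjusted p = 0.0217). Without Col4a3-/- replicate 2 the sex-term fit called 0 of the 13 in Col4a3-/- kidneys (7 with an unadjusted p under 0.05, against 25.5% of tested genes) and 8 higher in Col4a3-/-OPN-/- kidneys (16.3% of tested genes called). Vcam1 was then 2.24 (adjusted p = 0.0756) and 3.08 (adjusted p = 0.00879) and Lcn2 2.86 (adjusted p = 0.0583) and 4.03 (adjusted p = 0.00365). The fit without a sex term then called 1 and 5 of the 13 higher, where 3 and 590 of 7145 tested genes were called in either direction. Without Wild Type replicate 2, which left 1 Wild Type mouse, the sex-term fit called fewer of the 13 and fewer of all tested genes. None of the 5 superfamily members with other symbols, Eda, Edar, Eda2r, Ngfr and Relt, reached the filter; they read between 4.59 and 5.61.

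Marker genes of leukocytes moved on the same arrays. The mean of 10 macrophage markers was 6.25 to 6.43 in Wild Type, 7.20 to 8.77 in Col4a3-/- and 8.0 to 8.38 in Col4a3-/-OPN-/- kidneys. It was highest in Col4a3-/- replicate 2, like Tnfsf13b and Traf1. Fasl, Tnfsf4, Tnfsf8, Fas, Tnfrsf11b, Tnfrsf13b, Tnfrsf14, Tnfrsf18, Cd40 and Traf2 were highest there too, whereas Tnfrsf1b was highest in Col4a3-/-OPN-/- replicate 2 (7.43). The macrophage mean exceeded Wild Type by 1.39 in Col4a3-/- kidneys, by 0.87 without Col4a3-/- replicate 2 and by 1.80 in Col4a3-/-OPN-/- kidneys. Of its 8 tested markers 7 were higher in each mutant group with a sex term, among them Lyz2 (3.68 and 4.12) and Ctss (2.82 and 3.63), while Csf1r was not called (0.22 in both). None of the 8 passed without a sex term. Without Col4a3-/- replicate 2 the sex-term fit called 0 of 8 in Col4a3-/- and 7 in Col4a3-/-OPN-/- kidneys, where 0 and 1167 of 7145 tested genes were called. The fit without the term then called 0 and 7, where 3 and 590 of all tested genes were called. Lyz2 was then 2.48 (adjusted p = 0.0643) and 3.52 (adjusted p = 0.00641) with a sex term. Leaving out either Wild Type mouse, with 1 left in that group, the sex-term fit called fewer of the 8 in each mutant group. It also called fewer of all tested genes. The 5 T cell markers averaged 5.09 in both Wild Type mice, 5.17 to 5.56 in Col4a3-/- and 5.36 to 6.20 in Col4a3-/-OPN-/- kidneys. The 3 B cell markers averaged 4.79 to 4.92, 4.84 to 4.90 and 4.84 to 5.77. Col4a3-/-OPN-/- replicate 1 had the highest T and B cell means, with Cd3e at 7.32 and Cd79a at 5.90. Cd3d (4.97) and Cd8a (5.30) were not at their highest there, Cd3d equalling Wild Type replicate 2. Col4a3-/-OPN-/- replicate 1 was also the highest array for Ltb, Cd27 and Tnfrsf13c. The same held for Tnfsf9, Tnfsf10, Tnfsf11, Tnfsf15, Tnfrsf8, Tnfrsf19, Tnfrsf25, Tnfrsf26 and Traf5, so its high values were not limited to lymphocyte genes. NK cell and neutrophil marker means stayed between 4.77 and 5.02 throughout. The mean of 4 fibroblast markers was 7.57 to 7.71 in Wild Type and 8.45 to 9.90 in the mutants, and that of 4 proximal tubule markers was 11.47 to 11.49 in Wild Type and 9.85 to 11.45 in the mutants, lowest in Col4a3-/- replicate 2. The part of these cell types in the members' differences was not tested.

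**Figure D4:**
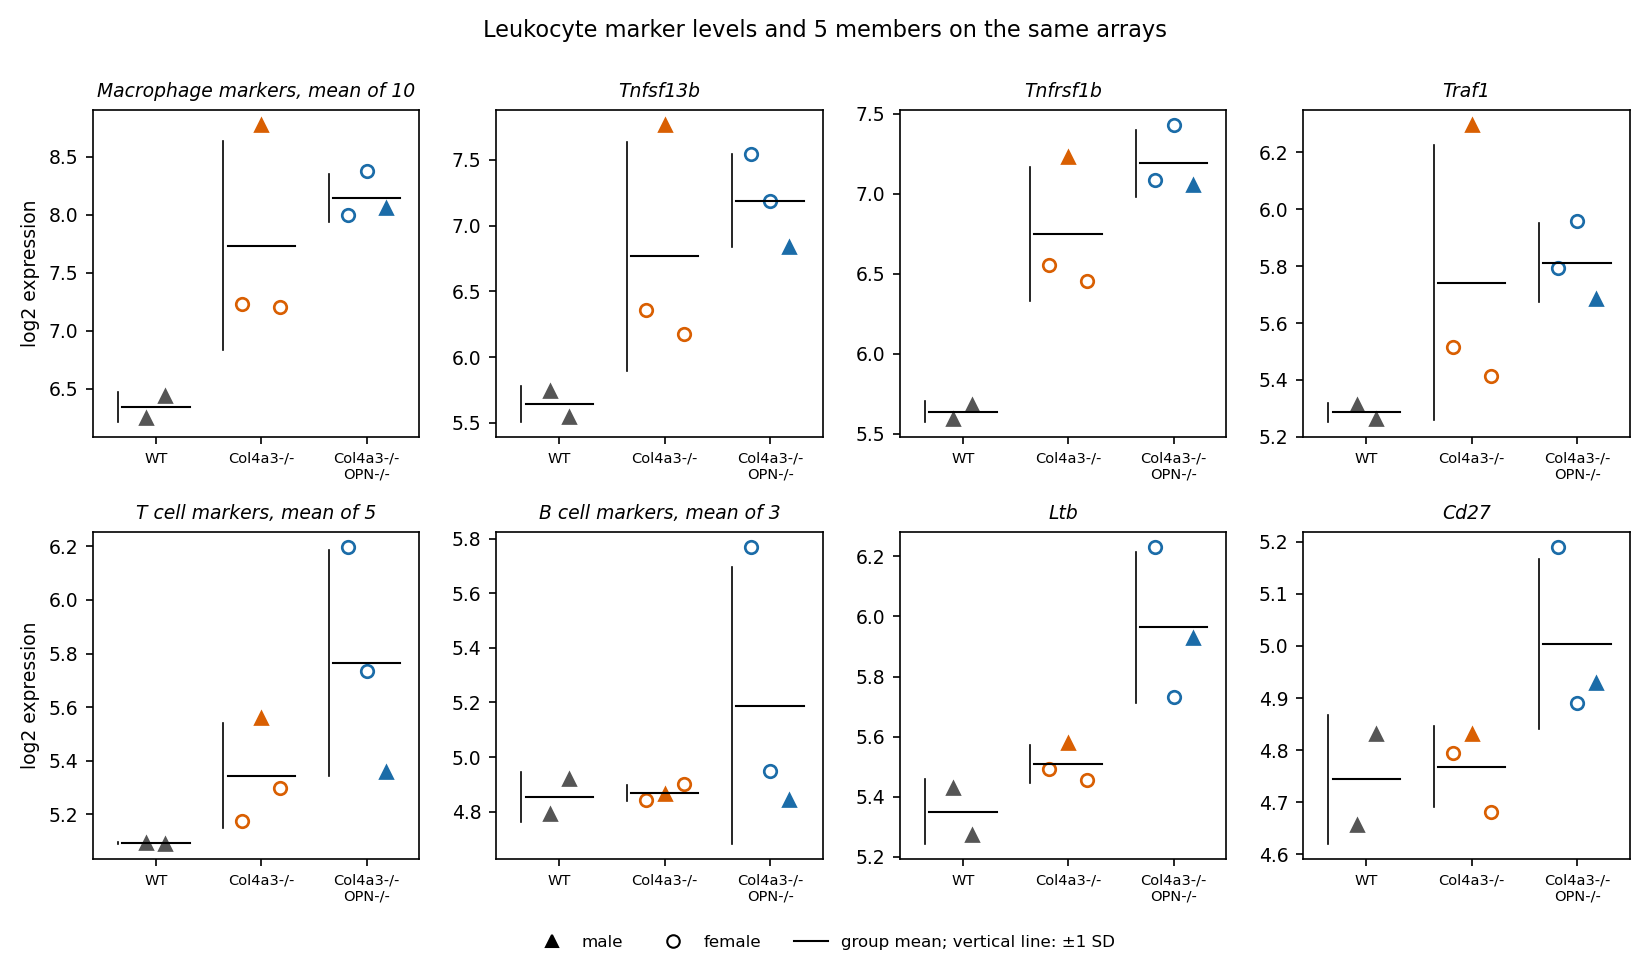
Mean log2 level of the macrophage, T cell and B cell marker lists and log2 expression of 5 members on the same 8 arrays, by group; triangles are males, open circles females, lines the group mean and ±1 SD. Col4a3-/- replicate 2 is the top array for the macrophage markers, Tnfsf13b and Traf1, and Col4a3-/-OPN-/- replicate 1 is the top array for the T and B cell markers, Ltb and Cd27. Tnfrsf1b is highest in Col4a3-/-OPN-/- replicate 2, and other members not drawn were also highest on the first-named arrays.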

How the data were processed

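The deposited log2 values of the series matrix, 1 column per array, were used as they stand; how the authors corrected and normalized the arrays was not given in the sources used, so the scale was read from the values (4.20 to 13.4, array medians 5.18 to 5.25). Of 33793 probe sets, 23521 carried 1 gene symbol, 1814 several and 8458 none; each gene was taken at its highest-mean single-gene probe set. limma 3.58.1 (lmFit, eBayes, R 4.3.3) fitted the 3 groups over 8 arrays, with and without sex, and p-values were adjusted by Benjamini-Hochberg over all genes tested (called under 0.05); the fits were tested on simulated data. Members named in full were those called by either fit, filled up to 8 per comparison by smallest p; other members are covered by counts and named with values. The members and lists were chosen with earlier results of these data known. Promoter windows came from a RefSeq table, searched with Python 3.11.15. The 8 arrays limit the precision. The p-values set each difference against 1 estimate per gene of the spread between these mice, shared by the 3 groups. limma moderated that estimate over all genes tested. Alternatives covered the filter, normalization, variance model, probe-set choice, the replicate block, sex and leaving out each array. The osteopontin gene's own values are not reported here.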

Additional observations from a re-analysis of the deposited data

Results flagged for a closer look

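A probe set that no comparison uses, because it is assigned to Tnfsf12, Tnfsf13 and their readthrough gene Tnfsfm13 together, gave a signal that separated the groups. It read 6.19 and 6.25 in Wild Type, 6.62, 6.72 and 6.54 in Col4a3-/- and 6.68, 6.64 and 6.39 in Col4a3-/-OPN-/- kidneys, a difference of 0.41 between the Col4a3-/- and Wild Type means. All 6 mutants lay above both Wild Type mice, as 9.24% of all genes did. Which of the 3 genes gave the signal was not tested. Groups of 2 and 3 mice are too small to test for single outlying samples. That Col4a3-/- replicate 2 stood apart is a description of its correlations only.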

How the results depend on the processing

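Tests were repeated without the filter, with it at the 50th percentile, after quantile normalization, median centring or cyclic loess, with an intensity trend and robust prior, with the mean of a gene's probe sets, with the replicate number as a block and without each array in turn. Some of these could not change a member's difference. No member had several probe sets to average. Without a sex term, leaving out an array of the group not compared left the difference as it was. Leaving out a Wild Type mouse did the same for the difference between sexes. Of 1524 values of 98 gene results under these settings, 1391 kept direction and side of the threshold, 65 lost a call, 26 gained one, 38 changed sign and 4 moved beyond the spread. A result not called in the main fits had no call to lose, so the 65 came from the called results only. The 1391 include results that were never called, so their share does not measure how stable the calls were. With a sex term 2 of 9 members were called in Col4a3-/- against Wild Type (1946 of 7145 genes). With no filter 1 of 43 was (1532 of 22180 genes). In Col4a3-/-OPN-/- against Wild Type 3 of 9 were called (1728 of 7145 genes). With the filter at the 50th percentile 7 of 29 were (2127 of 13062 genes). Between females and males 1 of 9 was called (728 of 7145 genes), and 0 of 43 with no filter (331 of 22180). The replicate block called 2 of 9 there (711 genes), adding Traf4 (0.86, adjusted p = 0.0337). Leaving out 1 array gave 0 to 3, 0 to 3 and 0 to 2 members for these comparisons in turn. It gave 0 to 1 for Col4a3-/-OPN-/- against Wild Type without a sex term. The lows of the first 2 came without either Wild Type mouse, and for Col4a3-/- also without its replicate 2, when 0 of the 1946 genes otherwise called remained called. Without a Wild Type mouse the lone one is assumed to vary like the other groups. The comparison of the mutants gave 0 throughout. Leaving out each array for the lists of other genes was chosen after seeing the data.

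Same-numbered samples correlated between -0.577 and 0.256, with 2 of 7 pairs over 0.1. Some of these pairs joined a female and a male, and the 2 mutant males, which have different numbers, correlated at 0.543. The check therefore could not tell whether the numbers mark a pairing. With the block Tnfrsf12a lost its calls (adjusted p = 0.0863 and 0.0543), and Tnfsf13b gained one in Col4a3-/- kidneys (1.87, adjusted p = 0.0231). Among members tested with no filter it took the calls of Tnf (adjusted p = 0.0649) and Cd40 (0.0584) in Col4a3-/-OPN-/- and of Tnfrsf14 (0.108) in Col4a3-/- kidneys, and gave one to Tnfrsf1b in the latter (0.0371). Median centring took those of Tnf (0.0512) and Tnfrsf14 (0.0667), and the trend and robust prior that of Tnfrsf14 (0.0737).

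No value with a changed sign was called, nor was its value in the main fit. With a sex term Tnfrsf1a in Col4a3-/- was -0.036 under the replicate block, Ltbr was 0.010 in Col4a3-/- and 0.037 in Col4a3-/-OPN-/- under quantile normalization and 0.045 in the latter under cyclic loess, and Tnfrsf1a between sexes was -0.0061 and -0.019 under these 2. Leaving out 1 array spread the differences as follows. Against Wild Type without a sex term, Ltbr ran from -0.31 to 0.045, Traf6 from -0.15 to 0.015 and Tnfsf10 from -0.0052 to 0.29 in Col4a3-/-, and Tnfrsf21 from -0.50 to 0.20 in Col4a3-/-OPN-/- kidneys. With it, Tnfrsf1a ran from -0.060 to 0.24 and Ltbr from -0.49 to 0.053 in Col4a3-/-, and Tnfsf10 from -0.36 to 0.16 and Ltbr from -0.26 to 0.28 in Col4a3-/-OPN-/- kidneys. Between the mutants without it, Tnfrsf12a ran from -0.13 to 0.77, Tnfsf10 from -0.025 to 0.48, Traf6 from -0.018 to 0.12, Traf4 from -0.37 to 0.14, Tnfrsf21 from -0.32 to 0.044 and Ltbr from -0.18 to 0.17. With it, Traf4 ran from -0.28 to 0.028, Traf6 from -0.018 to 0.13, Tnfrsf21 from -0.20 to 0.024 and Ltbr from -0.20 to 0.23. Between sexes, Tnfsf13b ran from -1.50 to 0.53, Traf6 from -0.15 to 0.029 and Tnfrsf1a from -0.061 to 0.25. The -1.50 of Tnfsf13b, without Col4a3-/-OPN-/- replicate 3, passed in limma (adjusted p = 0.00866). Its 0.53 came without Col4a3-/- replicate 2. The cause of these changes was not tested. Most members read in the lower part of the array's range, which limits what their differences can show.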
